A study of Homo sapiens with 372 samples.

Results

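The question addressed here was how the transcripts of A2780 cells held in celecoxib for 16 h differed when paclitaxel was present as well. A2780 is an established line of human ovarian cancer cells. The combination group received 75 µM celecoxib together with 5 nM paclitaxel for 16 h, and the group set against it received 75 µM celecoxib for 16 h. Both groups therefore shared the celecoxib dose and the time, and differed by paclitaxel. The table of expression values holds 59 combination cells of 59 wells and 61 celecoxib cells of 67 wells, which is 120 of the 338 cells of the 6 conditions of the study. The untreated control (46 cells) and 5 nM paclitaxel alone for 16 h (56 cells) are given beside them where they bear on a value. Trypsinized cells were captured on the Fluidigm C1 system, with libraries made by Smart-seq2, which copies polyA-tailed RNA over its full length. How many captures each condition came from is not stated. No culture or capture was named as a replicate, so each condition counts as 1 sample, called 1 run below. No test between conditions was possible. The SDs and ranges below are spreads over cells, and a count of genes past a limit describes these 2 runs only.

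Microtubules are hollow fibres built from alpha and beta tubulin, and they form the spindle that separates chromosomes in mitosis. Paclitaxel binds beta tubulin in the fibre and stabilizes it, which disturbs the spindle. Celecoxib inhibits the cyclooxygenase PTGS2, and at high concentrations it is also known to stress the endoplasmic reticulum. That stress, like a shortage of amino acids, slows general translation and lets the transcription factor ATF4 be made, which turns on the factor CHOP (gene DDIT3) and genes for amino acid uptake and synthesis.

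Each gene is given as its E-value, log2(N/10 + 1). Here N stands for TPM, a length-corrected share of the transcripts of a cell, after the authors had scaled it to a spike-in RNA added to the same well. Differences in E contain the amount of RNA in the cell. A second scale, same-total E, was made by setting the sum of N over the 9664 genes equal in every cell before the logarithm was taken again, so that it describes the makeup of the transcriptome alone. A gene was counted as higher or lower when the group means of E differed by over 1.5-fold, a log2 difference of 0.585. The "percent of pairs" below is the share of all pairs of a combination cell and a celecoxib cell in which the combination cell had the higher value, ties counted equally to both.

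The cells of both groups gave similar numbers of genes above 0, with a median of 6129 genes (range 5089 to 8499) in the combination and 6329 genes (5021 to 7084) in celecoxib alone. How many reads each cell received is not known. The label of each cell ends in a running number, which was divided here into blocks of 96. What these blocks stand for in the laboratory is not stated. All 61 celecoxib cells lay in block 3, whereas 25 combination cells lay in block 3 and 34 in block 1, so each comparison was also made with the block 3 cells alone. A combination well that is noted with a 0 in its label was still in the table. Leaving it out gave 483 genes higher and 419 lower on the same-total scale, against 486 and 424 with it. Doublets were not called, since a caller needs read counts, and 2 combination cells had a total over 2 times the median of their group. Of the cell type markers looked for, KRT18 (1 of 7 epithelial markers) and VIM (1 of 3 mesenchymal) were among the genes listed. So were LUM and COL1A2 (2 of 5 fibroblast) and LYZ (1 of 6 immune). The summed E of the fibroblast markers ranged from 0 to 8.66 over combination cells and from 0 to 9.02 over celecoxib cells, and 15.3% and 31.1% of these values were above 0. The LYZ value was above 0 in 40.7% of combination cells and 60.7% of celecoxib cells. In the same order KRT18 was above 0 in 30.5% and 26.2%, and VIM in 67.8% and 72.1%. The part of these markers in the results was not tested.

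The transcript total, the sum of N in a cell, was about 4-fold higher with paclitaxel present. The log2 total ranged from 18.15 to 19.81 over the celecoxib cells with a median of 19.01, and from 19.73 to 23.38 over the combination cells with a median of 21.02. The difference of 2.01 on the log2 scale is a ratio of medians of 4.03, and it exceeded the SDs over cells of 0.43 and 0.58. The groups barely overlapped, since 1 combination cell lay below the highest celecoxib cell and the combination cell was higher in 99.9% of pairs. Within block 3 the difference was 1.90 and with the block 1 combination cells it was 2.16, and between the blocks of the combination it was -0.26 (block 3 minus block 1). Without celecoxib the sign was the other way, as the median log2 total of paclitaxel cells minus that of control cells was -0.99. The amount of RNA in a cell, its capture and the amount of spike-in that entered a well cannot be told apart in these values. Nor can the condition and its run.

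**Figure D1:**
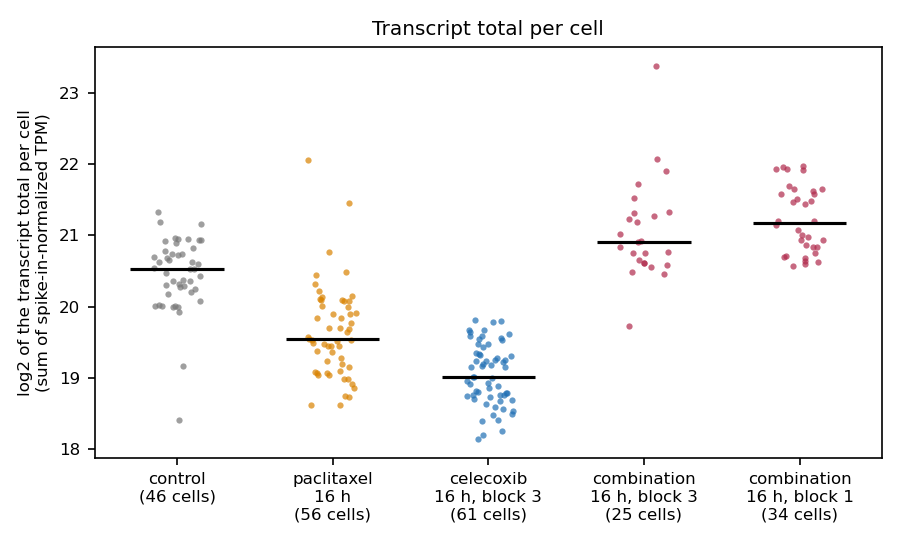
Each point is the log2 transcript total of 1 cell, the sum of spike-in-normalized TPM, and each bar is the median of its group. Combination cells of block 3 (median 20.91) and block 1 (21.17) sit above nearly all celecoxib cells (19.01), whereas paclitaxel alone sits 0.99 below the control.

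On the deposited scale 6374 of 9664 genes (66.0%) were over 1.5-fold higher in the combination and 4 genes (0.0414%) were lower. The median difference over all genes was 0.88, and 98.5% of genes had a difference above 0. The 4 lower genes were GDF15 (-0.89 on the log2 scale), CDKN1A (-0.87), MAT2A (-0.76) and FOS (-0.76). These are a stress-secreted cytokine, the cyclin-dependent kinase inhibitor p21, the enzyme that makes S-adenosylmethionine, and a subunit of the AP-1 transcription factor. The means compared here are of E, a log2 value. With a ratio of linear means on the deposited scale CDKN1A (1.61), GDF15 (1.57) and FOS (1.16) were higher in the combination, and MAT2A (0.82) was lower. At the same total, 486 genes (5.03%) were higher and 424 (4.39%) were lower, and the median difference was -0.01. All 486 were also higher on the deposited scale, whereas of the 424 lower genes 236 were higher, 184 within the limit and 4 lower there. The 315 genes that were higher with either block of combination cells and the 263 that were lower with either block share the same celecoxib cells, and 1 gene lay past the limit in opposite directions. Between the blocks of the combination itself, cells of 1 treatment, 212 genes were higher and 332 lower in block 3 at the same total. The split of genes past the limit was 53.4% higher with means of E, 44.7% after median-of-ratios scaling, and 29.7% with a ratio of linear means (882 higher, 2086 lower).

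**Figure D2:**
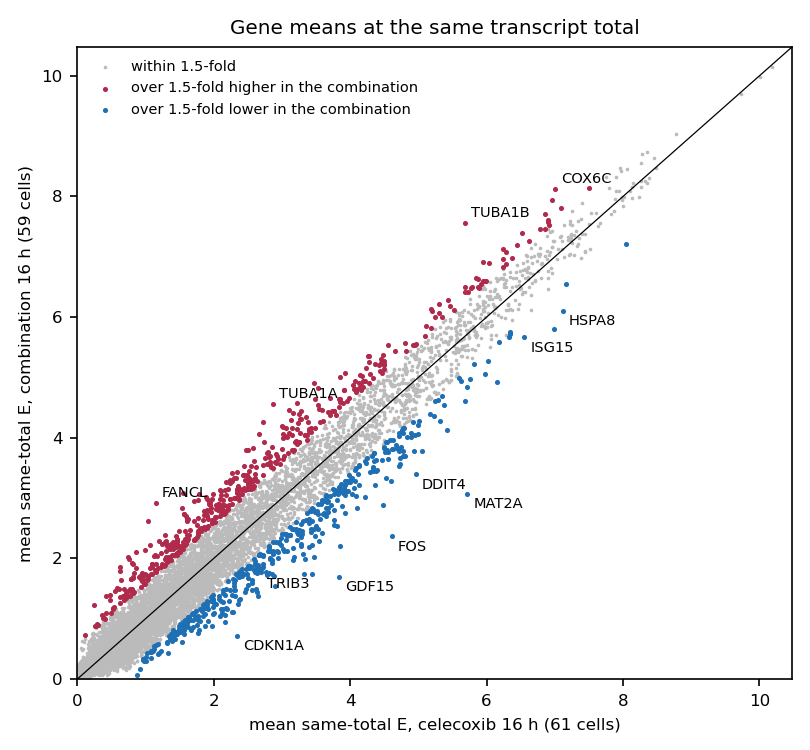
Each point is 1 of 9664 genes, with its mean same-total E (log2 scale) over 61 celecoxib cells on the x axis and over 59 combination cells on the y axis; the line marks equal means. TUBA1B and TUBA1A stand above the line and MAT2A, FOS, GDF15 and CDKN1A below it, and most genes lie within 1.5-fold.

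Tubulin genes had the highest median of the 41 gene lists at the same total. Of 14 tubulin genes listed, 6 were higher at the same total (42.9%, against 5.03% of all genes), 0 were lower, and the median difference was 0.49. On the deposited scale their median was 1.96, beside 0.88 over all genes. E shrinks towards 0 at low N, so the value over all genes also depends on their level. There the actin list also had 1.96 and the cytosolic ribosomal proteins had 2.23. TUBA1B encodes the main alpha tubulin of dividing cells. Its same-total E ranged from 0.26 to 9.59 over celecoxib cells with a median of 5.87, and from 4.53 to 8.97 over combination cells with a median of 7.86. The celecoxib cells were thus widely spread and mostly lower, and the ranges overlapped. The difference of means was 1.89, the largest rise of any gene under the rule for named genes, and the combination cell was higher in 83.1% of pairs. The alpha tubulin TUBA1A had a median of 3.11 (range 0.00 to 6.18) in celecoxib and 4.73 (0.24 to 7.33) in the combination, a difference of means of 1.70. For TUBA1C the medians were 3.65 and 5.02 and the difference 1.44. These 3 genes lie close together on chromosome 12 of hg38 (TUBA1B at chr12:49127782-49131397, TUBA1A at chr12:49184686-49189080, TUBA1C at chr12:49188736-49274600) and are nearly identical in sequence, so that the estimate of each gene can borrow reads from the others. Summed, they differed by 1.65 at the same total, a 2.24-fold ratio of linear means. The mean of this sum was 6.37 in celecoxib and 8.02 in the combination, and it was 8.13 in the control and 8.02 in paclitaxel alone.

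Of the 7 beta tubulins, which carry the paclitaxel site, TUBB, TUBB6 and TUBB4B were higher, TUBB3 (0.49), TUBB4A (0.33) and TUBB2A (0.31) were within the limit, and TUBB2B differed by -0.13. TUBB, the main beta tubulin, had a median same-total E of 4.05 (0.00 to 6.69) in celecoxib cells and 5.17 (1.77 to 6.25) in combination cells, with a difference of means of 1.15. TUBB6 differed by 0.70 and TUBB4B by 0.64, both with SDs over cells above that difference. For TUBB4B the ratio of linear means at the same total was 1.00. With linear means TUBB6 differed by 0.40, under the limit. The sum of 7 beta tubulins differed by 0.63, but its ratio of linear means was 1.27, also under the limit. TUBG1, gamma tubulin of the spindle pole, differed by 0.49, and TUBE1 (epsilon) by -0.29. Among 16 microtubule regulators 2 were higher (12.5%, against 5.03% of all genes) and 0 lower, with a median of 0.00. They were STMN1, stathmin, which binds free tubulin dimers, and TBCA, a chaperone of beta tubulin folding. STMN1 had medians of 6.17 and 6.87 and a difference of 0.97, and TBCA differed by 0.79. Averaged over the 14 genes, the per-cell tubulin level ranged from 1.33 to 4.18 over celecoxib cells (median 2.58) and from 2.01 to 3.98 over combination cells (median 3.29). Its mean in the control was 3.13 and in paclitaxel alone 2.89. Of the genes of prostaglandin metabolism, the pathway celecoxib is known for, 6 of 16 were listed. Of these 6, 1 was higher (16.7%, against 5.03% of all genes) and 0 lower. It was PTGR2, a prostaglandin reductase, with a difference of 0.60, which was 0.56 without the combination cells of high total. PTGS1 and PTGS2, the cyclooxygenase genes, were not among the 6 listed, so no value is given for them.

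**Figure D3:**
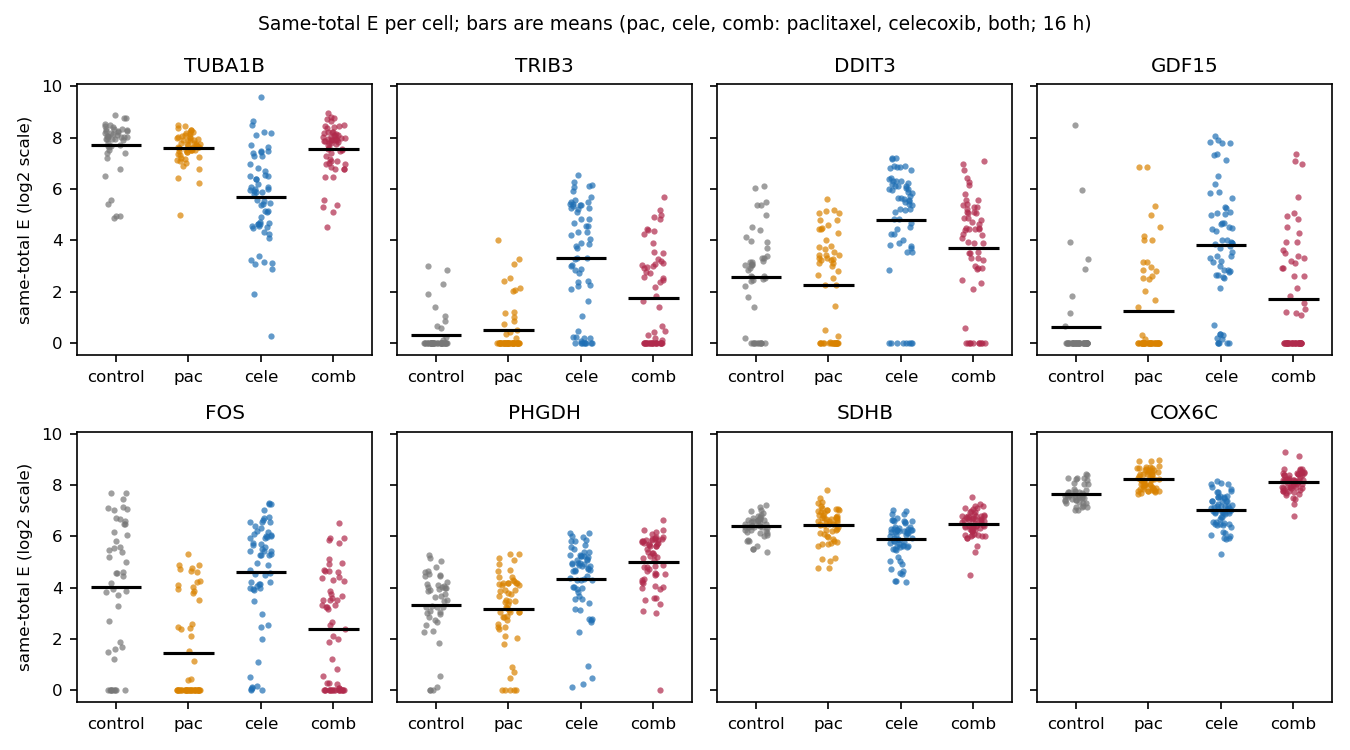
Each point is the same-total E (log2 scale) of 1 cell for the gene named above the panel, in control, paclitaxel 16 h, celecoxib 16 h and combination 16 h cells, and bars are means. TUBA1B lies lower in celecoxib (mean 5.68) than in the other 3 conditions (7.56 to 7.70), TRIB3 and GDF15 lie highest in celecoxib, and PHGDH is highest in the combination (5.00).

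Genes of the ATF4 and CHOP arm of the stress response lay mostly on the lower side in the combination at the same total, with a difference below 0 for 23. Of 34 genes in the list 30 were listed, of which 9 were lower at the same total (30.0%, against 4.39% of all genes) and 1 was higher. The median difference was -0.39 at the same total and 0.77 on the deposited scale. All genes had 0.88 there, a value that also depends on their level. Some of these genes are known to be switched on through a CARE, the joint site for ATF4 and a C/EBP partner. The letters TGATGNAAN on either strand were searched in RefSeq promoter windows (GRCh38.p14, 250 bases before to 50 after each start). A window was at hand for 24 of the 30 genes. The letters were found for 7 of them (29.2%), against 4.45% of the 27305 genes with a window and 2.52% of the genes of the table. They were found for 2 of 7 lower genes and for 5 of 17 genes that were not lower. A match is a description of the letters in these windows and not of a site in use. The windows of CEBPG and SLC3A2, which were lower, and of ASNS, which was within the limit, are shown because all 3 hold the letters. Capitals mark the match, and these genes were chosen after their values were seen.
CEBPG: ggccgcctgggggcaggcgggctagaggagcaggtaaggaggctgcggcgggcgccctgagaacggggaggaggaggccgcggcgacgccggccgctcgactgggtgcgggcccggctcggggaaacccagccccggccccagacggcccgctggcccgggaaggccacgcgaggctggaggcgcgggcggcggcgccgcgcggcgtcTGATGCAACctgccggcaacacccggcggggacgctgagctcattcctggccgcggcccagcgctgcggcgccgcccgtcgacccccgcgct
SLC3A2: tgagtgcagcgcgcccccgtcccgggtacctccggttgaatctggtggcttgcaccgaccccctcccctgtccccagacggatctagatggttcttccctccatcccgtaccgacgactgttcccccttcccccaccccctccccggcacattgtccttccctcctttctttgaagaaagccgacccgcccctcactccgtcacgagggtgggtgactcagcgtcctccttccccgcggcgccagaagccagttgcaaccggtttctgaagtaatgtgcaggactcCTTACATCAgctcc
ASNS: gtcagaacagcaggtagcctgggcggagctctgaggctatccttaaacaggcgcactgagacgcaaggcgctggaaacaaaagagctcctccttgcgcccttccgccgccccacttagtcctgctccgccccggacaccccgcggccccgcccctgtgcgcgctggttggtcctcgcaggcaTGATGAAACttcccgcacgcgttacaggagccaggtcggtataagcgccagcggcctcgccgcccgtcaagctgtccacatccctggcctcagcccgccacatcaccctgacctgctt
The CEBPG window is chr19:33373863-33374162 on the plus strand and its match begins 42 bases before the start. The SLC3A2 window is chr11:62881449-62881748 on the plus strand, and its match, on the opposite strand, begins 36 bases after the start. The ASNS window is chr7:97872359-97872658 on the minus strand, printed in the direction of the gene, and its match begins 68 bases before the start.

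Among the regulators of the arm, ATF4 itself had a mean same-total E of 5.17 in celecoxib and 4.39 in the combination, a difference of -0.78. DDIT3, which encodes CHOP, had a median of 5.53 (range 0.00 to 7.23) in celecoxib cells and 4.25 (0.00 to 7.08) in combination cells, and its means differed by -1.10. CEBPG, a C/EBP partner of ATF4, had medians of 3.42 (0.00 to 4.83) and 2.20 (0.00 to 3.83), and its difference of -1.24 exceeded both SDs over cells (1.04 and 0.98). The combination cell was the higher one in 18.3% of pairs for CEBPG, the clearest separation of the 3. TRIB3, a pseudokinase that dampens CHOP and AKT signalling, had medians of 3.78 and 1.41 and a difference of -1.57. DDIT4, an inhibitor of mTORC1, had medians of 5.17 (0.12 to 7.04) and 3.58 (0.00 to 6.63) and a difference of -1.56. Both transcripts were still above their control means of 0.32 and 1.19 in the combination, where the means were 1.75 for TRIB3 and 3.40 for DDIT4. On the deposited scale the same genes were within the limit, at -0.29 for TRIB3 and 0.20 for DDIT4, while the ratios of linear means there were 1.73 and 1.72.

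The uptake and synthesis genes downstream divided. SLC3A2 and SLC7A11, which form the cystine importer, differed by -1.04 and -0.83 at the same total. PHGDH, the first enzyme of serine synthesis, was the 1 gene of the arm that was higher. Its same-total E ranged from 0.13 to 6.14 over celecoxib cells (median 4.71) and from 0.00 to 6.62 over combination cells (median 5.28), with a difference of means of 0.66, and of 0.52 with linear means, under the limit. The next serine enzymes PSAT1 and PSPH, named after their values were seen, differed by -0.56 and -0.38. ASNS, asparagine synthetase, had medians of 4.89 and 5.22 and a difference of 0.19, within the limit, and its mean was far above the control in both groups (4.71 and 4.90, against 2.50). Per cell, the mean over the 30 genes ranged from 1.16 to 3.47 in celecoxib (median 2.66) and from 0.92 to 3.20 in the combination (median 2.33). The control mean was 1.45 and that of paclitaxel alone 1.37, so that the combination lay between celecoxib and the conditions without it. Of 20 aminoacyl-tRNA synthetases, which load amino acids onto tRNA, 5 were lower (25.0%, against 4.39% of all genes) and 1 was higher, with a median of -0.23. SARS1, MARS1, CARS1, IARS1 and HARS1 differed by -0.92, -0.87, -0.81, -0.75 and -0.66, and QARS1 by 0.85. With block 3 cells alone CARS1 differed by -0.45, and with linear means QARS1 differed by 0.29, both under the limit.

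Other stress lists were counted in the same way. Of 24 listed chaperones and unfolded protein response genes of the endoplasmic reticulum, 1 was higher (MANF, 0.73) and 0 lower, with a median of -0.06. The share higher was 4.17%, against 5.03% of all genes. Of 17 cytosolic heat shock proteins 1 was lower (5.88%, against 4.39% of all genes). It was HSPA8, the constitutive HSP70, with a median of 7.24 (4.87 to 8.73) in celecoxib and 6.31 (2.65 to 7.84) in the combination and a difference of -1.01. HSPA1A and HSPA1B, near-identical inducible HSP70 genes, differed by -0.28 when summed. Of 11 mitochondrial chaperones and proteases 2 were lower (18.2%, against 4.39% of all genes) and 1 higher, with a median of -0.15. LONP1, the matrix protease, had medians of 2.92 and 1.97 and a difference of -1.11, whereas HSPD1, the matrix chaperonin HSP60, had medians of 5.95 and 6.67 and a difference of 0.65.

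Targets of p53, the factor that halts the cell cycle after damage, lay mostly on the lower side at the same total. Of 22 listed, 5 were lower (22.7%, against 4.39% of all genes), 1 was higher, and 19 had a difference below 0. The median difference was -0.22 at the same total and 0.35 on the deposited scale. Averaged over the 22 genes, the mean per-cell level was 1.46 in celecoxib and 1.07 in the combination. It was 1.03 in the control and 1.05 in paclitaxel alone, so celecoxib alone was the highest and the combination lay near the control. GDF15, which lies at chr19:18374731-18389176, was above 0 in 56 of 61 celecoxib cells and in 28 of 59 combination cells. Its same-total E ranged from 0.00 to 8.08 in celecoxib with a median of 3.89, and from 0.00 to 7.37 in the combination with a median of 0.00. The means differed by -2.13. CDKN1A was above 0 in 35 of 61 and 16 of 59 cells, with medians of 2.30 and 0.00 and a difference of -1.62. MDM2, the ubiquitin ligase that degrades p53, had medians of 2.60 and 0.84 and a difference of -0.96. The nuclease gene AEN differed by -0.73 and TP53I3 by -0.69, and CCNG1, cyclin G1, was higher by 0.63. A few combination cells reached high values, up to 8.66 for CDKN1A.

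Cell cycle lists held few genes past the limit in either direction. Of 42 S phase genes 2 were higher and 2 lower, of 55 G2 and M genes 4 were higher and 2 lower, and of 30 genes of the spindle checkpoint and anaphase-promoting complex 2 were higher and 2 lower. In the order of these lists, 4.76%, 7.27% and 6.67% were higher, against 5.03% of all genes. Lower were 4.76%, 3.64% and 6.67%, against 4.39%. The medians were 0.08, 0.06 and 0.04. PTTG1, securin, which holds sister chromatids together until anaphase, had medians of 2.28 (0.00 to 7.72) and 4.03 (0.00 to 7.85) and a difference of 1.26. AURKB, the kinase of the chromosomal passenger complex, was above 0 in 24 of 61 celecoxib cells and 32 of 59 combination cells and differed by 0.90, with SDs over cells of 2.05 and 2.35. CDC20, the activator of the anaphase-promoting complex, differed by -0.59. The replication clamp PCNA differed by -0.65 and the replicative helicase subunit MCM6 by 0.82. The block 1 and block 3 cells of the combination differed here, with a mean over the 42 S phase genes of 1.80 and 1.44, and 1.58 in celecoxib. With block 3 cells alone AURKB differed by 0.56 and CDC20 by -0.46, both under the limit. PCNA differed by -1.43 with the block 3 cells and by -0.07 with the block 1 cells.

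Immediate early genes, which respond to growth signals and stress within minutes, gave 2 lower genes of 20 (10.0%, against 4.39% of all genes). The median was -0.25, and 16 differences were below 0. FOS had a median of 5.28 (range 0.00 to 7.31) in celecoxib cells and 2.54 (0.00 to 6.50) in combination cells, and the means differed by -2.24. It was above 0 in 59 of 61 and 42 of 59 cells. In cells without celecoxib the mean of FOS was 4.04 in the control and 1.44 with paclitaxel, a difference of -2.59. IER2 had medians of 2.29 and 1.32 and a difference of -0.93, and without celecoxib its difference was -1.20. These cells do not enter the comparison of the combination with celecoxib, so the lower FOS and IER2 values were seen in both pairs of runs.

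Nuclear genes of the respiratory chain and the mitochondrial ATP synthase lay mostly on the higher side in the combination at the same total. Of 81 listed, 22 were higher at the same total (27.2%, against 5.03% of all genes), 0 were lower and 68 had a difference above 0. By complex, 10 of 37 genes of complex I, 2 of 4 of complex II, 3 of 9 of complex III, 3 of 12 of complex IV and 4 of 19 of the ATP synthase were higher, with medians between 0.25 and 0.36. On the deposited scale the complex I median was 2.37. COX6C, a small subunit of complex IV, ranged from 5.30 to 8.16 over celecoxib cells (median 7.05) and from 6.77 to 9.29 over combination cells (median 8.16). NDUFS5, a subunit of complex I, ranged from 5.13 to 7.90 (median 6.96) and from 6.79 to 8.88 (median 7.97). The differences of 1.11 for COX6C and 0.98 for NDUFS5 exceeded both SDs over cells, and the combination cell was higher in 93.9% and 94.6% of pairs. SDHB, the iron-sulfur subunit of complex II, had medians of 6.04 and 6.57 and a difference of 0.61, which stayed past the limit in 6 of 11 alternatives (lowest 0.53). Averaged over the 81 genes, the per-cell level ranged from 5.09 to 6.11 in celecoxib (median 5.76) and from 5.73 to 6.50 in the combination (median 6.06), and the combination cell was higher in 92.7% of pairs. The means of this level were 5.99 in the control and 6.14 in paclitaxel alone, against 5.73 in celecoxib and 6.06 in the combination. It was 6.06 in either block of the combination.

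Mitochondrial ribosomal proteins, which are also nuclear-encoded and translate the mitochondrial messages of the same complexes, were counted beside them. Of 78 listed, 18 were lower (23.1%, against 4.39% of all genes), 3 were higher (3.85%, against 5.03%), and the median was -0.23. MRPS12 had a median of 5.45 (1.74 to 7.55) in celecoxib and 4.25 (0.00 to 6.30) in the combination and a difference of -1.28. MRPS2 and MRPS11 differed by -1.16 and -1.14, and MRPS22 by 1.14. Of 37 mitochondrial carriers 1 was higher (2.70%, against 5.03% of all genes) and 0 lower, with a median of 0.05.

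Of 83 cytosolic ribosomal proteins 7 were higher (8.43%, against 5.03% of all genes) and 0 lower, with a median of 0.16 and 64 differences above 0. RPL22L1, a paralog of RPL22, had medians of 4.01 (0.00 to 6.46) and 4.97 (3.22 to 6.48), and RPL12 differed by 0.93. Ribosomal protein genes have many processed pseudogenes, and how the estimates divided reads among them is not known here. Of 51 translation initiation factors 4 were higher and 4 lower (7.84% each, against 5.03% and 4.39% of all genes). EIF4EBP1, a repressor of cap-dependent translation that ATF4 is known to induce, had medians of 7.33 (3.26 to 8.38) and 6.07 (1.76 to 7.39) and a difference of -1.19. EIF3H and EIF3F, subunits of the factor that binds the small ribosomal subunit, differed by 1.01 and 0.93, and EIF3F by 0.52 with linear means, under the limit. In the list of the MYC network and ribosome biogenesis 6 of 34 genes were lower (17.6%, against 4.39% of all genes) and 1 was higher, with a median of -0.22. NOP2 (-1.05), NOP16 (-0.81) and NOLC1 (-0.75), all nucleolar, were the lowest, and FBL, fibrillarin, was higher (0.66). Of 12 RNA polymerase II subunits 2 were lower (16.7%, against 4.39% of all genes). Of 34 SR proteins and hnRNPs 4 were lower (11.8%) and 2 higher (5.88%, against 5.03% of all genes).

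Of 35 subunits of the proteasome, the protease of the cytosol and nucleus, 27 had a difference above 0 at the same total. Past the limit, 9 were higher (25.7%, against 5.03% of all genes) and 1 lower (2.86%, against 4.39%), with a median of 0.31. Averaged over the 35 genes, the mean per-cell level was 4.83 in celecoxib and 5.14 in the combination. It was 5.62 in the control and 5.25 in paclitaxel alone, so the combination lay above celecoxib and below the control. PSMB3 had medians of 6.32 (4.34 to 7.65) and 7.19 (6.18 to 8.10) and a difference of 0.89, and the combination cell was higher in 88.0% of pairs. PSMB6, a catalytic subunit, differed by 0.87, PSMD10 of the assembly pathway by 1.05, and PSMB10, the inducible subunit of the immunoproteasome, by -0.66. Of 32 lysosome genes 8 were higher (25.0%, against 5.03% of all genes) and 1 lower (3.1%, against 4.39%), with a median of 0.07. The higher ones included ATP6V1E1 (1.36), ATP6V1H (1.00) and ATP6V1D (0.93), subunits of the pump that acidifies the lysosome, and the lower one was the protease gene CTSC (-0.80). Of 21 autophagy genes 3 were higher (14.3%, against 5.03% of all genes) and 0 lower. The higher ones were ATG3 (1.20), SQSTM1 (0.61) and GABARAPL2 (0.59). GABARAPL2 stayed past the limit in 4 of 11 alternatives (lowest 0.46) and SQSTM1 in 7 of 11 (lowest 0.39), and PSMD10 was at 0.57 with medians over cells.

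**Figure D4:**
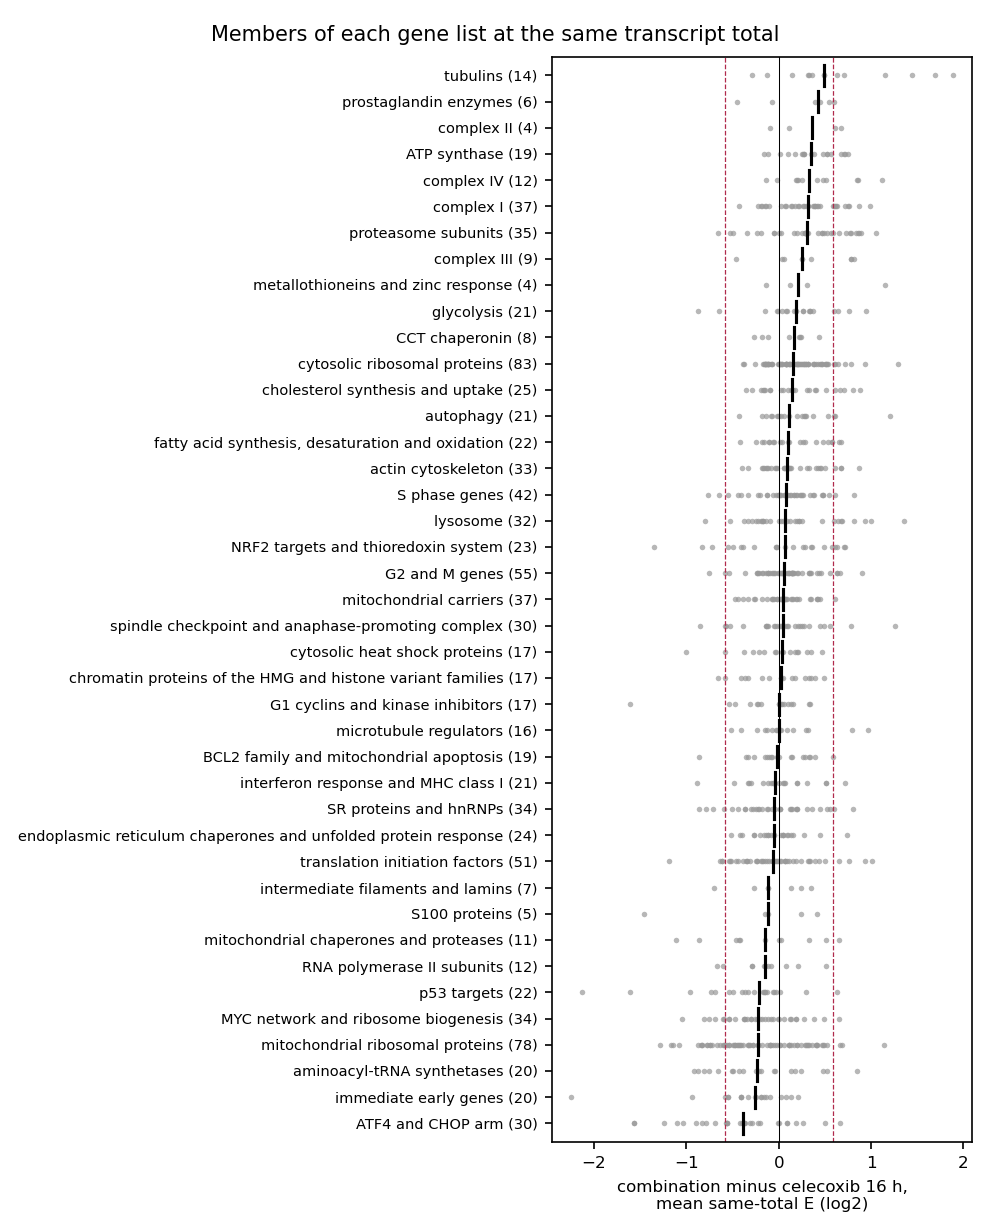
Each point is 1 gene, placed at the difference of mean same-total E (log2), combination minus celecoxib 16 h; black ticks are list medians, dashed lines mark 1.5-fold, and numbers in brackets are genes listed. Tubulins (median 0.49) are at the top and the ATF4 and CHOP arm (-0.39) at the bottom, and the median of each of the 41 lists lies within 1.5-fold.

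In metabolism, 5 of 25 genes of cholesterol synthesis and uptake were higher (20.0%, against 5.03% of all genes) and 0 lower, with a median of 0.14. IDI1, an isomerase early in the pathway, differed by 0.88, TM7SF2 by 0.80 and FDPS by 0.61. Of 22 fatty acid genes 2 were higher (9.09%, against 5.03% of all genes), ACADM (0.68) and CPT2 (0.66), both of beta oxidation. SCD and ACACA, of synthesis, differed by -0.16 and -0.25. TM7SF2 was at 0.50 with block 3 cells alone, and ACADM and CPT2 were at 0.43 and 0.41 with medians over cells, all under the limit. Of 21 glycolysis genes 4 were higher (19.0%, against 5.03% of all genes) and 2 lower (9.52%, against 4.39%). LDHA, lactate dehydrogenase, had medians of 6.41 (3.85 to 8.71) and 7.20 (5.83 to 8.96) and a difference of 0.76, whereas SLC16A1, the lactate exporter MCT1, differed by -0.87. Of 23 NRF2 targets and thioredoxin genes 4 were higher (17.4%, against 5.03% of all genes) and 3 lower (13.0%, against 4.39%). TXNIP, which binds and inhibits thioredoxin, had medians of 3.26 and 1.27 and a difference of -1.35, and TXN, thioredoxin itself, differed by 0.71. The metallothionein MT1X was above 0 in 23 of 61 celecoxib cells and 45 of 59 combination cells and differed by 1.15.

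Among the 19 listed apoptosis genes of the BCL2 family and the mitochondrial pathway, with a median of -0.02, the protease gene HTRA2 was lower (-0.86). Of 21 interferon response and MHC class I genes, 1 was lower and 1 higher (4.76% each, against 4.39% and 5.03% of all genes). ISG15, a ubiquitin-like interferon product, had a median of 6.68 (3.93 to 8.36) in celecoxib and 5.81 (2.87 to 6.97) in the combination and a difference of -0.88. The membrane protein gene IFITM2 had medians of 6.16 and 6.68 and a difference of 0.71, and IFITM1 differed by 0.51. With medians over cells the difference of IFITM2 was 0.52, under the limit. In cells without celecoxib, IFITM2 differed by 1.11 and IFITM1 by 1.32 between paclitaxel and control. Of 33 actin genes 4 were higher (12.1%, against 5.03% of all genes) and 0 lower. Among the higher were MYL12B, a myosin light chain (0.87), and TPM3, a tropomyosin (0.67, and 0.55 with medians over cells). S100A11 was above 0 in 39 of 61 celecoxib and 21 of 59 combination cells and differed by -1.46, while S100A4 differed by 0.42.

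The largest falls outside these lists were led by MAT2A, at chr2:85539168-85545281. Its same-total E ranged from 3.35 to 7.04 over celecoxib cells with a median of 5.89, and from 0.00 to 5.22 over combination cells with a median of 3.40. The combination cell was higher in 2.64% of pairs, and the difference of -2.64 exceeded both SDs over cells (0.74 and 1.34). The MAT2A mean was 5.72 in celecoxib and 3.07 in the combination, and it was 2.87 in the control and 1.91 in paclitaxel alone. C19orf48P differed by -1.64 and OVCA2 by -1.59. OVCA2 was the better separated of this pair, with medians of 4.72 and 3.03 and the combination cell higher in 10.5% of pairs.

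The largest rises outside the tubulins were FANCL (1.76), NAA60 (1.57), LACTB2 (1.54), PIR (1.54), FMC1 (1.40), ATP6V1E1 (1.36) and GSTO1 (1.35). FANCL, the ubiquitin ligase of the Fanconi anaemia DNA repair pathway, had a median of 0.00 (0.00 to 4.66) in celecoxib and 3.24 (0.00 to 5.37) in the combination. It was above 0 in 29 of 61 and 52 of 59 cells. NAA60, an acetyltransferase of the Golgi, had medians of 0.12 and 2.96. GSTO1, a glutathione transferase, had medians of 3.79 and 4.70. The mean of FANCL was 1.15 in celecoxib, 2.92 in the combination and 2.26 in the control, and that of GSTO1 was 3.23, 4.58 and 4.60.

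Shares of cells with a value above 0 were alike over all genes. The median share over genes was 66.1% in the combination and 65.6% in celecoxib, and 0 genes went from at most 10% of cells in either group to at least 50% in the other. The share was over 30 percentage points higher for 48 genes and lower for 20. The widest gains were TSTD3 (20 of 61 celecoxib cells and 47 of 59 combination cells), NT5DC1 (18 and 44), KBTBD3 (13 and 39), FANCL and LXN (17 and 40). The widest losses were GDF15, the transcription factor gene TFEC (32 of 61 and 10 of 59), ADO (36 and 14), EGR1 (37 and 15) and STC2 (39 and 17). A value of 0 can be a transcript that was missed, and the shares do not separate this from absence.

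The spread over cells was larger in the combination on the deposited scale and smaller at the same total. The SD of E depends on the level, since E shrinks towards 0 at low N, and N was about 4-fold larger in the combination on the deposited scale. Over 4580 genes with a mean E above 1 in both groups, the median SD over cells on the deposited scale was 1.62 in the combination and 1.15 in celecoxib, and 88.1% of genes had the larger SD in the combination. At the same total, over 5126 genes, the medians were 1.21 and 1.37 and 16.2% had the larger SD in the combination. The difference exceeded both SDs over cells for 2151 genes on the deposited scale and for 53 at the same total. At the same total the combination cell was higher in at least 90% of pairs for 3 genes and in at most 10% for 1 gene, and 0 genes separated the groups fully, against 6 on the deposited scale.

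Genes higher at the same total had a lower GC content, with a median of 43.3%, than those lower, with 52.4%, beside 47.0% over all 9643 genes with a transcript model. Their median lengths were 1977 and 2108 bases, beside 3302 over all genes. Across genes, which are not independent replicates, GC content and the difference had r of -0.15 and rho of -0.15. Between the blocks of the combination the correlation was of the same order and opposite sign (r of 0.12), and for paclitaxel against control it was -0.14. After the median difference in each of 20 bins of GC content was subtracted, 476 genes were higher and 409 lower, and with bins of length 472 and 438. The part of GC content in the calls of single genes was not tested further.

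Paclitaxel was also given without celecoxib, and the comparison of paclitaxel 16 h with the control shares no cells with that of the combination with celecoxib. At the same total it had 135 genes higher and 969 lower, where the combination against celecoxib had 486 and 424. Of the 135 genes higher without celecoxib, 28 were higher with it and 4 lower. Of the 969 genes lower without celecoxib, 116 were lower with it and 62 higher. Over all 9664 genes, 5.03% were higher and 4.39% lower with celecoxib. What overlap these shares alone would give was not worked out, so the counts are descriptions. Across all genes the differences had r of 0.15 and rho of 0.12, given as a description. Lists differed as well. The proteasome subunits, 9 higher and 1 lower with celecoxib, were 0 higher and 11 lower without it, and the median was 0.31 and -0.35. For the 14 tubulins the medians were 0.49 and -0.14, for complex I 0.31 and 0.18, for the mitochondrial ribosomal proteins -0.23 and -0.14, and for the immediate early genes -0.25 and -0.40. With 1 run per condition, no test of the difference between these comparisons was possible.

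**Figure D5:**
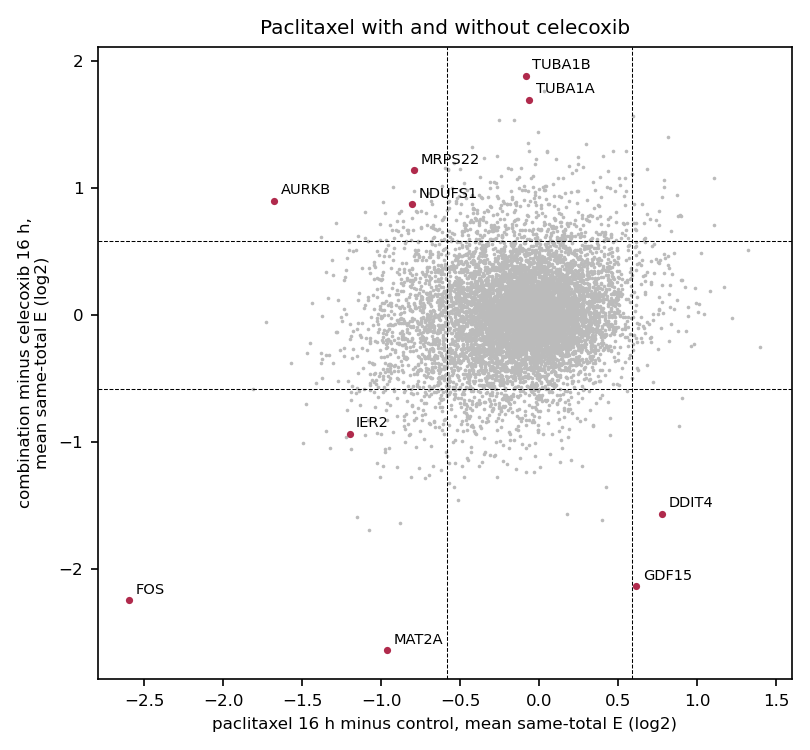
Each point is 1 gene, with the difference of mean same-total E (log2) between paclitaxel 16 h and control on the x axis and between the combination and celecoxib 16 h on the y axis; dashed lines mark 1.5-fold. FOS is low on both axes (-2.59 and -2.24), GDF15 and DDIT4 lie at the lower right and AURKB at the upper left, and TUBA1B is high on the y axis alone (-0.09 and 1.89).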

How the data were processed

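Single A2780 cells of 6 conditions were profiled by Smart-seq2 on the Fluidigm C1 system, and the 59 combination and 61 celecoxib 16 h cells were compared here. According to the submitters' processing notes, the authors used Trim Galore, RSEM 1.3.0 and Bowtie2, and the transcripts were GENCODE version 28 on hg38 with 3 spike-in RNAs. The authors divided TPM by the highest spike-in of the cell, removed cells with low housekeeping expression, kept genes found in over 30% of cells of a condition, and deposited E on a log2 scale, log2(N/10 + 1), to 3 decimals. A row of cell states assigned by the authors was not used.

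From E the linear N was recovered and summed per cell. Same-total E used the median total of the 338 cells. Means of E over cells were compared with a limit of 1.5-fold. With 1 run per condition no test was made, and depth in reads is unknown, so no counting interval is given. The groups come from the sample labels. No 2 columns of cells were identical. Names and coordinates are from GENCODE version 44, which matched 9643 identifiers, and promoters from RefSeq (GRCh38.p14). The steps were tested on simulated data. The software was matplotlib 3.10.9, scipy 1.17.1, pandas 2.3.3, numpy 2.4.6 and Python 3.11.15.

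The genes named are the 10 largest rises and falls at the same total and the 5 on the deposited scale, among genes above 0 in at least 30% of the cells of a group and past the limit within block 3, the 4 members of each list with the largest difference and all members of lists of up to 6, the 5 largest gains and losses in the share of cells above 0, drug targets, and genes the study discusses. Other members past the limit are named to complete a count, and some genes that the rule names are not reported here. The members, the 41 lists and the comparisons were chosen with earlier results of these data known. Markers of endothelial cells (0 of 3) and red cells (0 of 3) were not among the genes listed.

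Alternatives were each block of label numbers, leaving out the well noted as 0 or cells with high totals, and medians or linear means over cells. Others were a pseudocount of 1, filters on the share of cells above 0, a 2-fold limit and other scalings. The bins of GC content and length were chosen after seeing the data.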

Additional observations from a re-analysis of the deposited data

Results flagged for a closer look

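Every result here is a difference between the change with paclitaxel in celecoxib-treated cells and the change without celecoxib, where both changes passed 1.5-fold in opposite directions. Each condition counts as 1 run, so none of these differences was tested, and each is a log2 value. The transcript total was 2.01 higher with paclitaxel in celecoxib and 0.99 lower without it, and the changes differed by 3.00.

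At the same total, the 8 genes of this paragraph were higher with paclitaxel in celecoxib and lower without it. They are among 62 genes with this pattern. The changes of AURKB, the mitotic kinase, differed by 2.58. Those of MRPS22, of the mitochondrial ribosome, differed by 1.93 and those of the metallothionein MT1X by 1.93. For HNRNPLL, a splicing regulator, the value was 1.69, for NDUFS1 of complex I it was 1.68, and for SDHC of complex II it was 1.57. SQSTM1, an autophagy receptor, gave 1.53, and TPM3, a tropomyosin, 1.32. In alternatives the change in celecoxib fell to 0.56 for AURKB, 0.55 for TPM3, 0.52 for SDHC and 0.39 for SQSTM1, all under the limit. For MRPS22, MT1X, HNRNPLL and NDUFS1 that change stayed past the limit under every alternative.

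The reverse pattern was found for GDF15, with a value of -2.75, and for DDIT4, with -2.34. Both were lower with paclitaxel in celecoxib (-2.13 and -1.56) and higher without it (0.62 and 0.78).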

How the results depend on the processing

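The difference in transcript total lay between 1.90 and 2.16 under its 7 alternatives. The count of genes lower on the deposited scale, 4, was 86 with medians over cells, 18 with linear means, 38 with a pseudocount of 1 and 0 with a 2-fold limit. At the same total, 486 genes higher and 424 lower became 970 and 694 with medians, 882 and 2086 with linear means, 1630 and 1173 with a pseudocount of 1, and 74 and 69 with a 2-fold limit. Single genes turned on the deposited scale with linear means, where CDKN1A (0.69), GDF15 (0.65) and FOS (0.22) were higher in the combination. The cause of these moves was not tested. The block, noted-well, high-total, filter and scaling alternatives kept every count within 1.5 times. Of the genes named, 129 passed the limit at the same total and 83 did so under every alternative, and on the deposited scale 165 and 144. With 1 run per condition and unknown read depth, none of these values carries an error between cultures.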
